A study of Mus musculus with 2 samples.

Results

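Vmn1r206, Vmn1r207-ps and Vmn1r209 are 3 of the 55450 genes counted in this single-nucleus data set, and 3 of its 565 genes of the vomeronasal receptor families Vmn1r and Vmn2r. They were chosen after their UMI counts had been seen: the nuclei that carry them, the nuclei where they met Otp or Npsr1, and their lower level after high-fat diet are therefore described here without a test. The nuclei came from the ventrolateral periaqueductal gray (vlPAG), a midbrain region, of WT C57/BL6J mice given a normal food diet (NFD) or a high-fat diet (HFD) for 7 weeks from 8 weeks of age. Tissue of 18 mice per diet was dissected from brain slices, and 1 library of nuclei per diet was made with a 10X Chromium kit that tags the 3′ ends of RNA, with a target of 8000 nuclei. The study asked how gene expression in vlPAG GABAergic cells differs in diet-induced obesity.

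Vmn1r genes encode V1Rs, G protein-coupled receptors with which sensory neurons of the vomeronasal organ, in the nose, detect pheromones and other chemical cues. Such a neuron as a rule uses a single receptor gene, couples it to the G protein subunit Gnai2 and opens the ion channel Trpc2. The genes lie in large clusters of near copies. Otp is a homeodomain transcription factor best known from neuroendocrine neurons of the hypothalamus, and Npsr1 is the receptor of neuropeptide S.

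The libraries held 7500 NFD nuclei of 7625 barcodes and 6322 HFD nuclei of 6813 barcodes that had over 500 UMIs and less than 20% of them mitochondrial, at medians of 4504.5 and 7347.5 UMIs. The 125 and 491 barcodes left out had 0 UMIs of the receptor genes. The libraries shared 12 barcodes, and 0 of these carried a receptor UMI. The libraries differed in the cells they held: cerebellar granule neurons, which lie outside the vlPAG, numbered 10 in the NFD library and 763 in the HFD library. The labels record no difference in dissection, and the source of these nuclei was not tested. Diet, dissection and library cannot be told apart, and the intervals given cover counting error only. In sums over many nuclei, fewer cells of a type and less RNA per cell cannot be told apart either.

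All 3 genes lie on the minus strand of chromosome 13 (GRCm38, GENCODE vM21), within 192 kb, between positions 22617456 and 22809682. Vmn1r206 (ENSMUSG00000101578) spans chr13:22617456-22624251, Vmn1r207-ps (ENSMUSG00000084136) chr13:22722717-22729629 and Vmn1r209 (ENSMUSG00000071491) chr13:22800629-22809682. Each has a coding sequence of 939 bases, which is 313 codons from an ATG to a stop codon with 0 stop codons inside. This holds also for Vmn1r207-ps, whose name marks it as a pseudogene and which the annotation lists as protein coding. The first 240 coding bases are shown because they tell how alike the members are: capitals mark bases that differ from Vmn1r206. They lie in coding exons at chr13:22620796-22621035, chr13:22726383-22726622 and chr13:22806279-22806518, read on the minus strand.
Vmn1r206: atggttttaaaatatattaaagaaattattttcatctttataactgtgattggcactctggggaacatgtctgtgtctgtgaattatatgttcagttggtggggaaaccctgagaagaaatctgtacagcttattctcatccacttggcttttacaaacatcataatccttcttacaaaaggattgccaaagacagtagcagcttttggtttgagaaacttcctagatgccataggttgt
Vmn1r207-ps: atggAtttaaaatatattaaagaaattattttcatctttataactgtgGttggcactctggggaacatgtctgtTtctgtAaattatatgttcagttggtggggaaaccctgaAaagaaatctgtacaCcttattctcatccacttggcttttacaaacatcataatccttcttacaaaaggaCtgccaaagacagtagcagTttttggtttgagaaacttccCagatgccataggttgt
Vmn1r209: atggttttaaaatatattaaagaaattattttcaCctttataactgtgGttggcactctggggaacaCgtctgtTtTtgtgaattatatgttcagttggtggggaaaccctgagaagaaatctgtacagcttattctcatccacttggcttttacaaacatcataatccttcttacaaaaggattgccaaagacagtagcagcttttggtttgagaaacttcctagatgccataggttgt

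In this stretch Vmn1r207-ps differed from Vmn1r206 at 9 bases and Vmn1r209 at 5. Over the whole coding sequence the members were 95.2% to 96.0% identical to each other and 85.5% to 85.9% identical to Vmn1r208, the receptor gene between Vmn1r207-ps and Vmn1r209. Over the last 500 bases of the transcripts, near which 3′ libraries take most reads, 47.4% to 50.6% of bases were identical. Vmn1r207-ps nevertheless shared 850 stretches of 90 bases, 19.7% of its own, with Vmn1r209. How reads in such stretches bear on the counts was not tested.

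Few nuclei carried the receptors, and most of the RNA was in GABAergic neurons. Vmn1r206 had 66 UMIs in the NFD library and 51 in the HFD library, in 43 and 33 nuclei. Vmn1r207-ps had 97 and 48 UMIs, in 57 and 25 nuclei. Vmn1r209 had 202 and 76 UMIs, in 76 and 26 nuclei. Together this was 540 UMIs in 174 nuclei, 120 of NFD and 54 of HFD, or 1.26% of all nuclei (1.08 to 1.46%, Clopper-Pearson 95%). Of the 174 carriers, 82 had 1 receptor UMI, 41 had 5 or more, and the richest had 23. The 10 richest nuclei of the NFD library held 32.1% of its receptor UMIs, and the 10 richest of the HFD library 45.1%.

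The label of GABA neurons held for most but not all of this RNA. The GABAergic class, named from clusters whose Slc32a1, Gad1 and Gad2 level was at least 2-fold that of the vesicular glutamate transporters, held 397 of 540 UMIs (73.5%) and 108 of 174 carriers (62.1%, 54.4 to 69.3%). A cluster in which both transmitters' markers were present ("mixed transmitters") held 88 UMIs in 34 carriers. Glutamatergic clusters held 28 UMIs in 11 carriers, serotonergic nuclei 14 UMIs in 13 carriers, and unnamed clusters 10 UMIs in 5. Dopaminergic nuclei had 1 UMI. Among 1963 nuclei of glia, vessels and ependyma, which should lack these receptors, 2 carried 1 UMI each, a share of 0.102% (0.0123 to 0.368%) at a median of 1838 UMIs. Microglia had 0 carriers in 393 nuclei, which allows a share of up to 0.763%, and cerebellar granule neurons 0 in 773, which allows 0.388%.

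Within the GABAergic class the receptors were in 1 small group of neurons. The 3704 nuclei of the class with a UMI of Slc32a1, Gad1 or Gad2 were clustered without the Vmn1r and Vmn2r genes, Otp and Npsr1, which gave 9 subclusters. Subcluster 8, called the receptor subcluster below because it held most receptor UMIs, had 144 nuclei, 100 of NFD and 44 of HFD. It held 1.04% of all nuclei and 0.873% of all UMIs, but 351 of the 540 receptor UMIs (65.0%) and 88 of the 174 carriers (50.6%). Of the 374 receptor UMIs in the clustered nuclei it held 93.9%, and the other 8 subclusters had 0 to 12 UMIs each, in at most 3 nuclei. The 12 UMIs of subcluster 4, led by Nr4a2, came from 1 HFD nucleus.

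Each of the genes showed this pattern. Vmn1r206 had 56.4% of its UMIs in the receptor subcluster, Vmn1r207-ps 73.8% and Vmn1r209 64.0%. The summed level there was 505 UMIs per 1000000 UMIs (CPM; 444 to 572, exact Poisson 95%) in the NFD library and 302 (247 to 365) in the HFD library. In the rest of the GABAergic class it was 1.92 CPM (1.27 to 2.77) and 0.885 CPM (0.524 to 1.40). Of the other named groups the mixed-transmitter cluster came next, at 7.13 CPM (5.36 to 9.30) in NFD and 4.54 CPM (3.14 to 6.34) in HFD, and the NFD serotonergic nuclei at 6.55 CPM (3.58 to 11.0), which overlapped it. The rest of the GABAergic class and the glutamatergic class, at 1.37 CPM (0.781 to 2.22) in NFD and 0.756 CPM (0.391 to 1.32) in HFD, also overlapped.

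**Figure D1:**
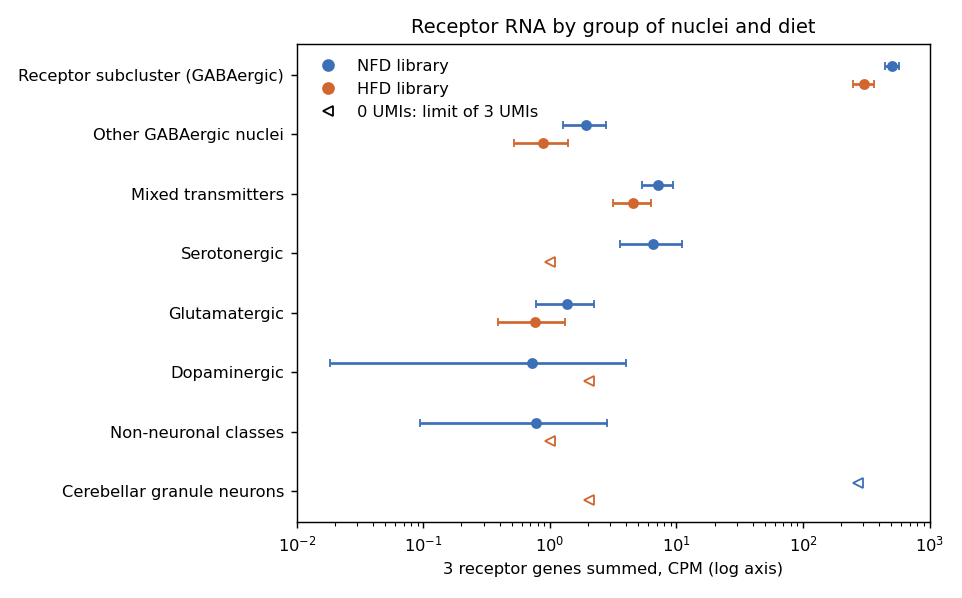
Level of Vmn1r206, Vmn1r207-ps and Vmn1r209 summed (x axis, CPM, log scale) in groups of nuclei (y axis) of the NFD library (blue) and the HFD library (orange), with exact Poisson 95% intervals and, at 0 UMIs, the limit that a count of 3 gives. The receptor subcluster stands at 505 and 302 CPM, and every other plotted group with a UMI is at or below 7.13 CPM.

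In the receptor subcluster 61.1% of nuclei (52.6 to 69.1%) had at least 1 receptor UMI. The share was 57.0% (46.7 to 66.9%) in NFD nuclei, at a median of 4218.5 UMIs, and 70.5% (54.8 to 83.2%) in HFD nuclei, at a median of 7653 UMIs. After thinning of each nucleus to 2000 UMIs, which left out 6 NFD nuclei and 0 HFD nuclei, the shares were 47.9% and 52.3%. Their intervals overlapped, and their order went against that of the CPM, so no order between the diets is read from the shares. Carriers in the subcluster had a median of 3 receptor UMIs, against 1 in the 86 carriers elsewhere, of which 58 had 1 UMI.

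**Figure D2:**
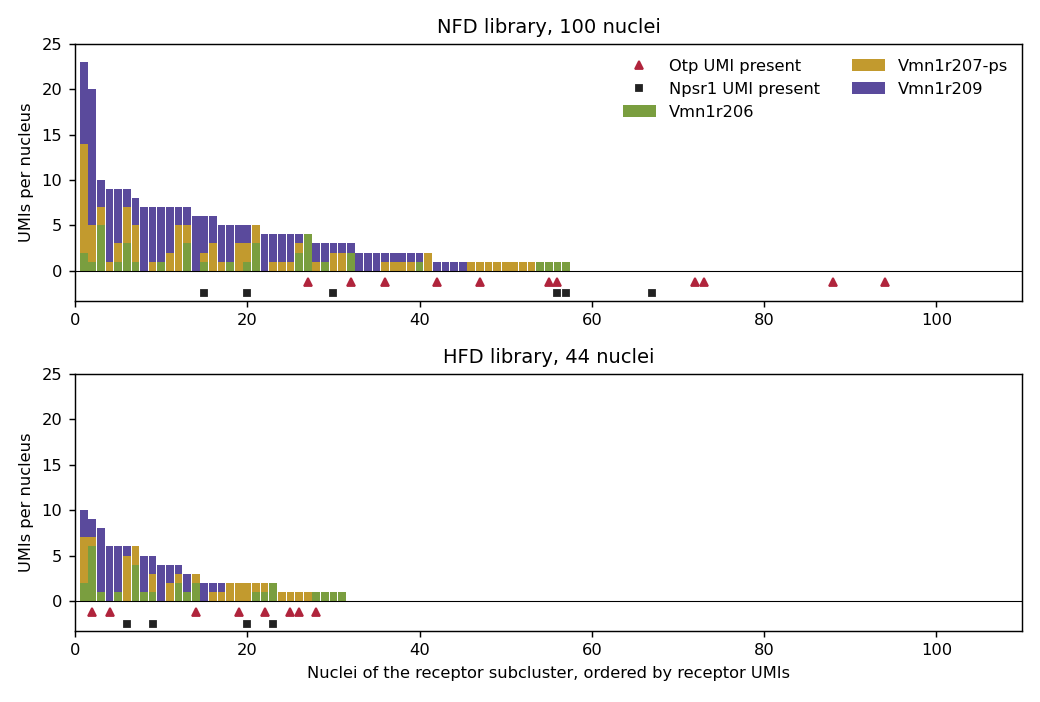
Receptor UMIs (y axis) in each nucleus of the receptor subcluster (x axis, ordered by receptor UMIs), stacked by gene, in the NFD library (top, 100 nuclei) and the HFD library (bottom, 44 nuclei), with marks under nuclei that had an Otp or Npsr1 UMI. The richest NFD nuclei had 23 and 20 receptor UMIs and the richest HFD nucleus 10; 43 NFD and 13 HFD nuclei had 0.

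The nuclei clustered here had been selected for GABAergic markers, so the levels of these are a description. In the receptor subcluster Gad2, which encodes a GABA-synthesizing enzyme, was at 479 CPM (433 to 528), Gad1 at 166 CPM and the vesicular transporter Slc32a1 at 71.8 CPM, against 2.39 CPM of the glutamate transporter Slc17a6. Slc6a5, the glycine transporter of glycinergic neurons, was at 18.0 CPM (10.1 to 29.6). In the other clustered nuclei Slc6a5 was at 11.0 CPM, a ratio of 1.64 (0.906 to 2.74). Besides the receptors, the genes highest in the subcluster over the other clustered nuclei were Nox4, an NADPH oxidase, Foxo1, a forkhead transcription factor, Rgs6, a regulator of G protein signaling, the zinc finger gene Casz1 and the extracellular protease Adamts5. These genes define the cluster and are given as its description. Nox4 was at 254 CPM in the subcluster and 13.9 CPM in the other nuclei, and Rgs6 at 1411 and 162 CPM.

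Of lists of related genes, 1.85% of the 10445 genes with at least 200 UMIs in the clustered nuclei were at least 2-fold higher in the subcluster than in the other 8, and 6.73% at least 2-fold lower, with a median log2 ratio of -0.05. Of 26 neuropeptides and their receptors 10 had enough UMIs, with 1 higher, 6 lower and a median ratio of 0.381. The higher one was Penk, the enkephalin precursor, at 165 CPM (139 to 195) against 34.5 CPM. Sst, which encodes somatostatin, stood at 19.2 CPM (11.0 to 31.1) against 114 CPM. The tachykinin receptor Tacr1 had 1 UMI in the subcluster, 1.20 CPM (0.0303 to 6.67), against 20.4 CPM elsewhere. Of 18 transcription factors of Otp or Sim1 lineages 8 were compared, with 0 higher, 4 lower and a median of 0.488. The other factors were below the minimum of 200 UMIs and so in neither count. Of these, Otp was at 23.9 CPM against 4.34 CPM, a ratio of 5.52 (3.26 to 8.88). Pax7 was at 10.8 CPM (9 UMIs) against 1.99 CPM, a ratio of 5.43 (2.37 to 11.0). The rest went the other way or were near 0 UMIs: Nkx2-2 was at 1.20 CPM (1 UMI) against 4.64 CPM, and Gata2 at 0 UMIs against 6.16 CPM. Sim2, Sox14, Foxa1, Foxa2, Nkx6-1 and Dmbx1 also had 0 UMIs in the subcluster. Gata3 and Tal1, which specify midbrain GABAergic neurons, were at 4.79 CPM (1.30 to 12.3) and at 0 UMIs, against 40.6 and 26.0 CPM in the other nuclei.

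Of the signaling genes of the vomeronasal organ, 0 of those compared were 2-fold higher in the subcluster. Of all 10445 genes compared, 1.85% were 2-fold higher there and 6.73% 2-fold lower. In lists as short as these, a count of 0 is near that share and is a description only. Trpc2 and the olfactory marker protein gene Omp had 0 UMIs in all 13822 nuclei. Of the 11 genes of vomeronasal signal transduction 5 had enough UMIs, with 0 higher, 1 lower and a median ratio of 1.01. Gnai2 was at 22.8 CPM (13.7 to 35.5) in the subcluster and 24.5 CPM in the other nuclei. The lower gene was the chloride channel Ano1, with 1 UMI in the subcluster against 9.29 CPM. Of 13 genes of receptor trafficking and receptor choice 8 were compared, with 0 higher and 1, Meis2, lower. Of 6 markers of vomeronasal or olfactory sensory neurons 1, Adcy3, could be compared, at 49.1 CPM against 53.2 CPM, and 2 were at 0 UMIs in all nuclei.

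Npsr1 and Otp were highest in another subcluster. Subcluster 5, of 260 nuclei led by Npsr1, Palld, Otp and Ebf2, had Otp at 67.7 CPM (56.0 to 81.1) and Npsr1 at 270 CPM (246 to 295). It held 3 receptor UMIs in 1 NFD nucleus, at 1.74 CPM. In the receptor subcluster Otp was at 23.9 CPM (14.6 to 37.0), in 13.2% of nuclei, and Npsr1 at 31.1 CPM (20.3 to 45.6), in 6.94%. The other 7 subclusters had Otp at 0 to 1.63 CPM, so that the receptor subcluster came next in Otp, while its Npsr1 level lay within the range of the other 7, from 5.57 to 65.0 CPM.

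**Figure D3:**
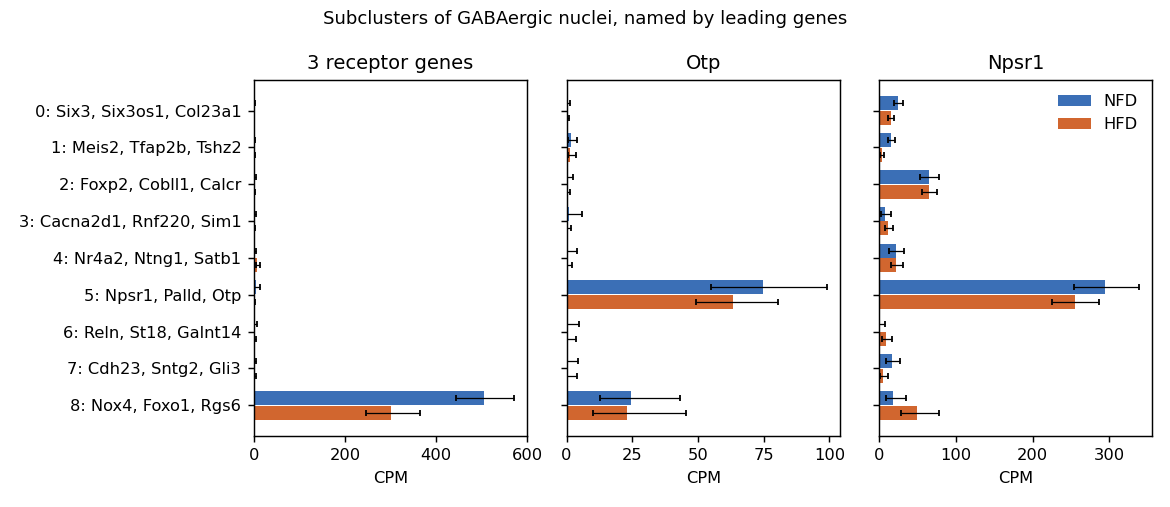
Levels (x axes, CPM, with exact Poisson 95% intervals) of the 3 receptor genes summed, Otp and Npsr1 in the 9 subclusters of GABAergic nuclei (y axis, with leading genes) in the NFD library (blue) and the HFD library (orange). The receptors stand in subcluster 8, at 505 and 302 CPM, while Otp and Npsr1 are highest in subcluster 5.

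Otp met the receptors as single UMIs. Of 174 carriers 21 had an Otp UMI (12.1%, 7.63 to 17.9%), 11 of 120 in NFD and 10 of 54 in HFD, against 141 of 13648 other nuclei (1.03%, 0.870 to 1.22%). Medians were 5447 UMIs in carriers and 5520 UMIs in the other nuclei, and in glia, vessels and ependyma 8 of 1963 nuclei (0.408%) had an Otp UMI. Each of the 21 nuclei had exactly 1 Otp UMI. The 45 nuclei with 2 or more Otp UMIs had 0 receptor carriers, which allows a share of up to 6.67%. After thinning to 2000 UMIs, 2 of 104 carriers (1.92%, 0.234 to 6.77%) and 56 of 11569 others (0.484%, 0.366 to 0.628%) had an Otp UMI, and these intervals overlapped.

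Most of the carriers with Otp were in the receptor subcluster. It held 15 of the 21, while the rest of the GABAergic class held 0 among its 20 carriers. Inside the subcluster 15 of 88 carriers (17.0%, 9.87 to 26.6%) and 4 of 56 nuclei without a receptor UMI (7.14%, 1.98 to 17.3%) had Otp, which overlapped. The medians of these nuclei were 5406.5 and 4344.5 UMIs.

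Among all nuclei of the HFD library, Npsr1 was in a larger share of carriers than of other nuclei. The shares overlapped in the NFD library, and also within the GABAergic class of the HFD library. In both libraries together Npsr1 was in 26 of 174 carriers (14.9%, 10.0 to 21.1%), 13 per library, and in 1300 of 13648 other nuclei (9.53%, 9.04 to 10.0%). In the NFD library the shares were 10.8% (5.90 to 17.8%) of carriers and 9.91% of others, and in the HFD library 24.1% (13.5 to 37.6%) and 9.08%, at medians of 9156.5 and 7330 UMIs. After thinning to 2000 UMIs the HFD shares were 5 of 27 carriers (18.5%, 6.30 to 38.1%) and 276 of 5287 others (5.22%). Within the HFD GABAergic class, at full depth, they were 4 of 36 carriers (11.1%, 3.11 to 26.1%) and 7.46% of others (6.36 to 8.68%). Of glia, vessels and ependyma 1.53% had an Npsr1 UMI. Both Otp and Npsr1 were found in 3 carriers, and neither in 130. The receptors were thus mainly in nuclei in which neither gene was detected at this depth.

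Nuclei often had more than 1 of the members. Of the 174 carriers 67 (38.5%, 31.2 to 46.2%) had UMIs of at least 2 members and 19 of all 3. In the receptor subcluster these were 49 of 88 carriers (55.7%, 44.7 to 66.3%), with 33 of 57 in NFD and 16 of 31 in HFD, and elsewhere 18 of 86 (20.9%, 12.9 to 31.0%). Vmn1r209 was in 35 of the 56 subcluster nuclei with Vmn1r207-ps (62.5%) and in 22 of the 88 without (25.0%), at medians of 5153 and 4971.5 UMIs. Vmn1r209 was likewise in 23 of 38 nuclei with Vmn1r206 (60.5%) and in 34 of 106 without (32.1%), though the nuclei with Vmn1r206 were deeper, at 6450 against 4644.5 UMIs. Vmn1r207-ps was in 19 of the 38 nuclei with Vmn1r206 (50%) and in 37 of the 106 without (34.9%). By library, Vmn1r209 was in 27 of 37 NFD nuclei with Vmn1r207-ps and 15 of 63 without, and in 8 of 19 and 7 of 25 HFD nuclei. Vmn1r207-ps and Vmn1r209 share 850 stretches of 90 bases, against 138 for Vmn1r206 and Vmn1r209 and 47 for Vmn1r206 and Vmn1r207-ps. The part of shared reads in these co-detections was not tested.

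Neighboring receptor genes, which the choice of members did not use, were also found mostly in the receptor subcluster. Within 250 kb of the members lie 47 genes, of which 26 had 0 UMIs and 5 had at least 20: the 3 members, Vmn1r208 and Gm11309. Vmn1r208 (chr13:22771474-22777400) had 51 NFD and 22 HFD UMIs, with 45 of the 73 (61.6%) in the receptor subcluster, and 41 of its 52 nuclei also carried a member. Gm11309, an antisense transcript on the plus strand at chr13:22691299-22714987, had 41 NFD and 45 HFD UMIs, with 36 of the 86 (41.9%) in the subcluster. Unlike the receptor genes, Gm11309 was not kept out of the clustering, and it is among the genes that lead the subcluster. All 31 other Vmn1r genes of the window together had 89 UMIs, 46 of them (51.7%, 40.8 to 62.4%) in the subcluster, from 12 genes. The 292 Vmn1r genes outside the window had 667 UMIs, of which 9 (1.35%, 0.619 to 2.55%) were there. These genes include others of the same stretch of chromosome 13. Of the 9 UMIs, 5 were of Vmn1r219, 430 kb from the start of Vmn1r207-ps.

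Genes on either side of the receptor cluster did not show this. Windows of 250 kb were measured from the start of Vmn1r207-ps, from 500 to 1250 kb on either side and from 1250 to 1500 kb before it. In them, genes that are not receptors had 0.278% to 1.16% of their UMIs in the subcluster, near its 0.873% of all UMIs. These genes had 439 to 26822 UMIs per window. Between 250 and 500 kb from the same start, on the side of Vmn1r209, 18 receptor genes had 63 UMIs, with 17 (27%) in the subcluster. Of these 17, 12 were of Vmn1r213, which is also counted above within 250 kb of the members, and 5 of Vmn1r219. Vmn1r218 had 0 of its 23 UMIs there.

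**Figure D4:**
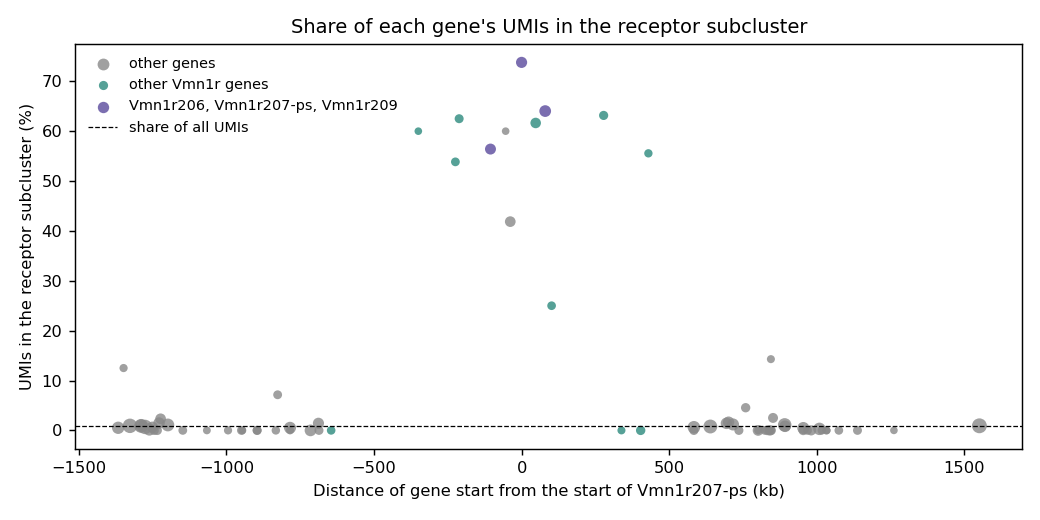
Share of each gene's UMIs that lay in the receptor subcluster (y axis, percent) against the distance of the gene from Vmn1r207-ps (x axis, kb), for genes with at least 5 UMIs; larger points had more UMIs, and the dashed line is the subcluster's 0.873% of all UMIs. The 3 members (purple) are at 56.4% to 73.8%, several other Vmn1r genes (green) lie near them, and the genes beyond 500 kb lie mostly near the line.

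Other chemoreceptor families did not share the pattern. The 238 Vmn2r genes had 9743 UMIs, more than the 1369 of the 327 Vmn1r genes, with 0.606% in the subcluster. Vmn2r87, the Vmn2r gene with most UMIs, had 2269 in 1828 nuclei, or 1.24 per carrying nucleus, with 16 in the subcluster. The members had 1.54 (Vmn1r206), 1.77 (Vmn1r207-ps) and 2.73 (Vmn1r209) UMIs per carrying nucleus. Of 1407 olfactory receptor genes (Olfr) 501 had a UMI, with 7588 UMIs in all and 0.896% in the subcluster. The trace amine receptors (Taar) and Fpr-rs receptors had 0 UMIs. Vmn1r4, Vmn1r-ps136, Vmn1r88, Vmn1r86, Vmn1r218 and Vmn1r81, the other Vmn1r genes with at least 20 UMIs, had 0 or 1 UMI in the subcluster.

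Among 14269 genes with at least 200 UMIs in all nuclei, the level over the 23 clusters of all nuclei that was most like the summed receptors was that of Slc6a5 (Pearson's r of log2(CPM + 10) = 0.82), followed by Gm40999 (0.78) and Gm3985 (0.67). Over the 9 GABAergic subclusters, among 10445 genes with at least 200 UMIs in the clustered nuclei, it was that of Casz1 (0.99), Tmem86b (0.98) and Armh4 (0.98). Clusters share their libraries and depths, and both lists are descriptions. Over the subclusters r rests mainly on subcluster 8, which held 93.9% of these receptor UMIs, so that genes raised there rank high. Over all clusters it rests largely on 1 GABAergic cluster, which held 368 of the 540 receptor UMIs. Among the GABAergic subclusters, Slc6a5 was a leading gene of subcluster 1 and not of the receptor subcluster. GABAergic nuclei with a receptor UMI had Nox4 at 273 CPM, against 14.3 CPM in the other GABAergic nuclei, a ratio of 19.1 (16.1 to 22.7). The ratios that came next were 7.98 for Rgs6, 6.52 for the ephrin receptor Epha3 and 6.24 for the glypican Gpc5, and all of these also lead the receptor subcluster.

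Between the libraries the receptors were lower after HFD, and by different amounts in different groups of nuclei. Over all nuclei the sum fell from 8.89 CPM with NFD to 3.21 CPM with HFD, or -1.47 as the log2 of HFD over NFD (-1.74 to -1.21, exact conditional binomial 95%). In the GABAergic class the levels were 18.1 CPM and 5.95 CPM, and the log2 ratio -1.61 (-1.93 to -1.30). All 3 members were at least 2-fold lower in the GABAergic class, where 0.579% of 14685 genes with at least 50 UMIs were. In all nuclei 2 of 3 were, against 0.762% of 18381 genes. These ratios are among the values the members were chosen by.

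By gene, the ratio in the GABAergic class was -1.04 (-1.73 to -0.36) for Vmn1r206, at 3.18 CPM in NFD and 1.55 CPM in HFD. For Vmn1r207-ps it was -1.47 (-2.06 to -0.91), at 5.37 and 1.93 CPM. For Vmn1r209 it was -1.96 (-2.45 to -1.49), at 9.60 and 2.47 CPM. The intervals of Vmn1r206 and Vmn1r209 overlapped between -1.73 and -1.49. Of the 14685 genes 0 had a lower ratio than Vmn1r209. The members were chosen with these ratios known, so this rank is a description only.

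The lower GABAergic sum went with fewer receptor subcluster nuclei and with a lower level in them. The subcluster made up 100 of 1916 clustered nuclei of the NFD library (5.22%, 4.27 to 6.31%) but 44 of 1788 of the HFD library (2.46%, 1.79 to 3.29%), a ratio of shares of 0.471. The other 8 subclusters had ratios from 0.631 to 1.38. In the clustering of all nuclei, the GABAergic cluster with most carriers (101 of 174) made up less of the class with HFD. It had 1062 of 2585 GABAergic nuclei in NFD and 475 of 2101 in HFD. Most of the 1537 nuclei of this cluster were not carriers, so its size is no measure of the receptor subcluster. Inside the subcluster the level ratio was -0.74 (-1.09 to -0.41), less far from 0 than in the whole class. Vmn1r206 was there at 75.9 CPM in NFD (37 UMIs) and 83.4 CPM in HFD (29 UMIs), or 0.14 (-0.62 to 0.88) as the log2 ratio. Vmn1r207-ps was at 152 and 94.9 CPM (-0.68, -1.32 to -0.07), and Vmn1r209 at 277 and 124 CPM (-1.16, -1.69 to -0.66). Of the members 1 of 3 was at least 2-fold lower, against 4.84% of 6009 genes with at least 20 UMIs there.

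Other genes of the subcluster also differed between the libraries, in both directions. Nox4 was at 308 CPM in NFD and 178 CPM in HFD, Rgs6 at 1799 and 865 CPM, and the noncoding gene Gm32647 at 4073 and 1334 CPM. Gpc5 was at 5218 and 7096 CPM, and Epha3 at 895 and 894 CPM. The members' lower levels thus stood beside those of other leading genes, and the part of the makeup of the nuclei in this was not tested.

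Outside the receptor subcluster the summed level was 2.93 CPM with NFD and 1.29 CPM with HFD (log2 ratio -1.18, -1.63 to -0.75). In the 162 nuclei with an Otp UMI it was 56.2 CPM (30 UMIs) and 28.7 CPM (32 UMIs), a ratio of -0.97 (-1.74 to -0.20), which was -0.25 as the mean of per-nucleus CPM. There 1 of the 2 members with at least 20 UMIs, Vmn1r209, was at least 2-fold lower, against 3.46% of 8420 genes. Vmn1r206 was at 16.9 and 12.5 CPM (-0.43, -1.74 to 0.96), and Vmn1r207-ps went the other way on few counts, with 2 NFD and 7 HFD UMIs at 3.75 and 6.27 CPM (0.74, -1.65 to 4.05). Otp itself was at 2.46 and 2.44 CPM over all nuclei (-0.01, -0.40 to 0.37), and Npsr1 at 52.3 and 54.9 CPM (0.07, -0.01 to 0.15).

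**Figure D5:**
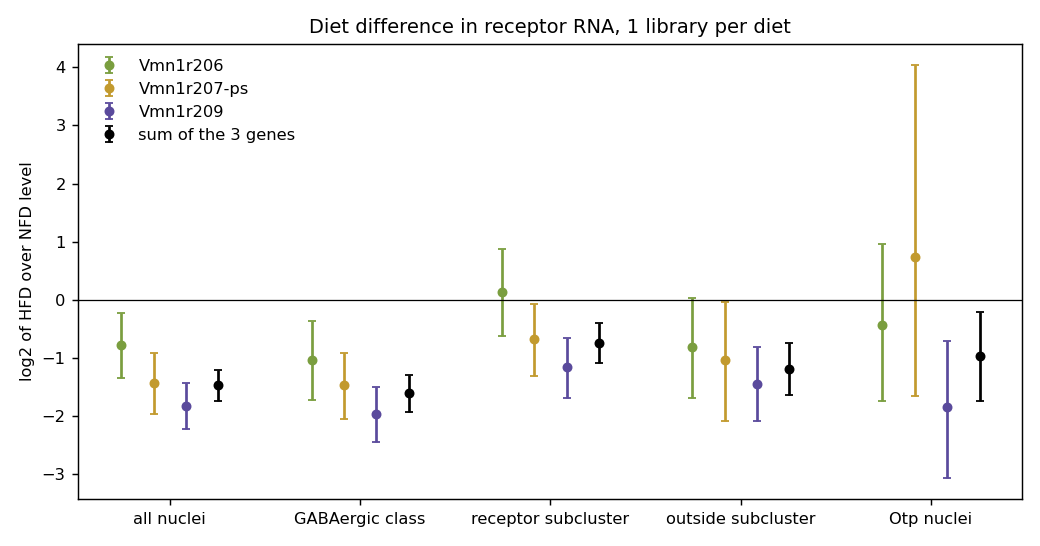
Log2 ratio of the HFD level over the NFD level (y axis) of each member and of their sum in 5 groups of nuclei (x axis), with exact conditional binomial 95% intervals and 1 library per diet. The sum is below 0 in each group, from -1.61 in the GABAergic class to -0.74 in the receptor subcluster, where Vmn1r206 is at 0.14.

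In smaller groups the libraries differed in other ways. All 13 serotonergic carriers were in the NFD library, 13 of 265 nuclei (4.91%, 2.64 to 8.24%) against 0 of 167 in the HFD library, which allows 1.80%. Of these carriers 12 had 1 UMI, and 11 of the 14 UMIs were of Vmn1r209. The markers Slc32a1, Gad1 and Gad2 together were at 358 CPM in the 13 carriers and 101 CPM in the other NFD serotonergic nuclei. The part of this in the result was not tested. In the mixed-transmitter cluster a group of 265 nuclei, 107 NFD and 158 HFD, held 67 of the 88 UMIs in 16 carriers. The median of this group was 14659 UMIs. Another group of 669 nuclei, 654 of them NFD, held 19 UMIs in 16 carriers.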

How the data were processed

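The authors demultiplexed the reads with bcl2fastq 5.01, counted UMIs against GRCm38 with Cell Ranger and analysed them in Seurat 3.1.1, per the labels and the study's methods. The deposited matrices hold unnormalized UMI counts, in whole numbers, of each gene in each nucleus. For intronic reads, the sources used here do not say if they entered the counts. As in the study, a nucleus was kept with over 500 UMIs of which less than 20% were mitochondrial. They were clustered in Seurat 5.3.0 (R 4.3.3) with 2000 variable genes less the Vmn1r and Vmn2r genes, Otp and Npsr1 (1989 left), 20 principal components and resolutions of 0.5 (all nuclei) and 0.1 (GABAergic nuclei), both libraries together. Classes were named from marker lists. Scrublet (scanpy 1.11.5) marked 1 and 0 nuclei, too few for use, and likely doublets stayed in. The 6% of nuclei with the highest doublet scores, left out in 1 alternative, included 6 of 120 NFD carriers and 8 of 54 HFD carriers.

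Summed counts per library and group were scaled to CPM. Intervals at 95% were exact Poisson for CPM, exact conditional binomial for ratios and Clopper-Pearson for shares, computed in Python 3.11.15 with scipy 1.17.1. The ratio step was tested on simulated data. Total UMIs were 41042988 (NFD) and 54587419 (HFD). With 1 library per diet no p-value was computed. A count of 0 allows up to 3 counts. Alternatives changed the nucleus filter, depth, doublets, clusters and the definition of a carrier. Genes were matched by ID to GENCODE vM21 (all 55450 IDs). The members, the gene lists and the named genes (UMI minimum, distance, likeness and ratio rules) were chosen with earlier results of these data known. The deposited counts carry no gene length, so levels are not ranked between genes.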

Additional observations from a re-analysis of the deposited data

How the results depend on the processing

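The log2 HFD to NFD ratio of the summed receptors stayed below 0 under every alternative run: from -1.91 to -1.43 in all nuclei, from -1.86 to -1.50 in GABAergic nuclei, from -0.82 to -0.58 in the receptor subcluster and from -1.01 to -0.25 in nuclei with Otp, the -0.25 being the mean of per-nucleus CPM. The value in all nuclei moved beyond its counting interval once, to -1.91 after thinning to 2000 UMIs. The share of GABAergic receptor UMIs in the receptor subcluster was 97.3% with all 2000 variable genes and 93.8% to 93.9% at 4 finer resolutions, with 30 principal components and without the 6% of nuclei with the highest doublet scores. The share of carriers with an Otp UMI fell to 1.92% after thinning. The share of carriers in the GABAergic class was 77.2% when a carrier needed 2 UMIs. In nuclei with Otp no ratio could be had after thinning (4 NFD and 0 HFD UMIs) or with 2 or more Otp UMIs (0 and 0). The subclusterings, the ratios in the receptor subcluster and the values without the richest nucleus of each library were added after seeing the data. No paired analysis was possible because each diet has 1 library. Depth limits the co-detection: 82 of 174 carriers rest on 1 UMI.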
